A study of Danio rerio with 7 samples.

Results

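The genes described here are the ligands, receptors and feedback genes of the fibroblast growth factor (Fgf) pathway. They were chosen by name: every gene whose symbol starts with *fgf* or *spry*, together with *dusp6*, *il17rd*, *etv4*, *etv5a* and *etv5b*, with symbols that start with *spryd* left out. Of 14612 genes with exon coordinates on the zebrafish assembly Zv9, 48 had such a symbol. Of these 48, 38 were the gene with the nearest promoter for at least 1 differential ATAC-seq peak, among 9030 genes with such a peak. Together they held 239 of the 44025 differential peaks, which are called member peaks here.

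ATAC-seq uses the Tn5 transposase to cut and tag accessible DNA, so that read density marks open chromatin. Whole Tg(Kdrl:GFP)s843 embryos, otherwise wild type, were raised to 26-27 hours post fertilisation and sorted by flow cytometry into *kdrl*:GFP+ cells, labelled endothelial, and *kdrl*:GFP- cells, labelled non-endothelial. The GFP is driven by *kdrl*, a Vegf receptor gene of the endothelium, and the brighter GFP fraction was the one taken as *kdrl*:GFP+. The labels give 3 libraries of each population, of 40000 to 50000 cells, and 1 library of genomic DNA from embryos of 28-30 hours. The *kdrl*:GFP- cells are a mixture of the other tissues of the embryo. By the gates the paper describes, cells of the dimmer GFP fraction belong to neither population. The *kdrl*:GFP+ cells were not divided into arteries, veins and endocardium.

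The peak table gives 1 concentration per population and peak, the log2 of the mean normalised read number of that population. The listed peaks are those that passed the authors' own DiffBind test between the populations, whose p-values were not used here. Neither population has a value for a single library and the read depth is unknown, so that the spread between replicates could not be computed and no test was run on the members. All values are therefore descriptions, read against the same values over all 44025 peaks. The difference given throughout is the *kdrl*:GFP+ minus the *kdrl*:GFP- concentration, so that 1 unit is a doubling. A concentration averages over a sorted population, so that fewer cells with open chromatin and less open chromatin per cell cannot be told apart. The table lists differential peaks alone, and peaks of equal height in both populations were not analysed here. No listed peak had an absolute difference below 0.756. The median of a group therefore jumps across this gap once higher peaks become the majority, and medians of opposite sign can go with similar shares. The nearest promoter need not be the promoter a peak acts on.

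Fgf ligands are secreted proteins that bind heparan sulphate and activate receptor tyrosine kinases on nearby cells, which signal through Ras and Erk. Target genes of the pathway include the Pea3 group of ETS transcription factors and a set of inhibitors, the Sprouty proteins, the Erk phosphatase Dusp6 and the membrane protein Il17rd, which limit the signal in return. In the vertebrate embryo the pathway is known for patterning the brain, the somites and the limb or fin buds, and in mammals Fgf2 is a classical angiogenic factor.

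Member peaks were more often lower than higher in *kdrl*:GFP+ cells. Of the 239 peaks, 89 had the higher concentration in *kdrl*:GFP+ cells, a share of 37.2% (95% Wilson interval 31.4% to 43.5%), and 150 had the lower one. Over all peaks of the table, 44.7% were higher and 55.3% were lower. The median difference of member peaks was -1.36, against -1.19 over all peaks. Large differences followed the same order, with 33 member peaks above 3 (13.8%, against 17.8% of all peaks) and 38 below -3 (15.9%, against 13.3% of all peaks). The interval counts peaks as if they were independent, which peaks of 1 locus are not: of 201 pairs of neighbouring peaks of the same member gene, 123 (61.2%) had the same direction, as had 67.5% of such pairs over all genes.

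The kinase receptors had the lowest share among the roles with more than 2 peaks. The 5 genes of receptor tyrosine kinases had 13 of 79 peaks higher (16.5%, interval 9.88% to 26.1%). All other member genes together had 76 of 160 higher (47.5%, interval 39.9% to 55.2%). Of the 38 genes, 4 had all their peaks higher (*fgf2*, *fgf10b*, *fgf12b* and *fgf20a*) and 7 had more higher than lower peaks, among them *dusp6* and *fgf18a*. A further 15 had more lower than higher peaks, 9 had all their peaks lower, and 3 had equal numbers. The same split was not made over all genes of the table, so these gene counts have no background to be read against. Over all peaks 55.3% were lower, and some of these genes had only 1 peak.

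**Figure D1:**
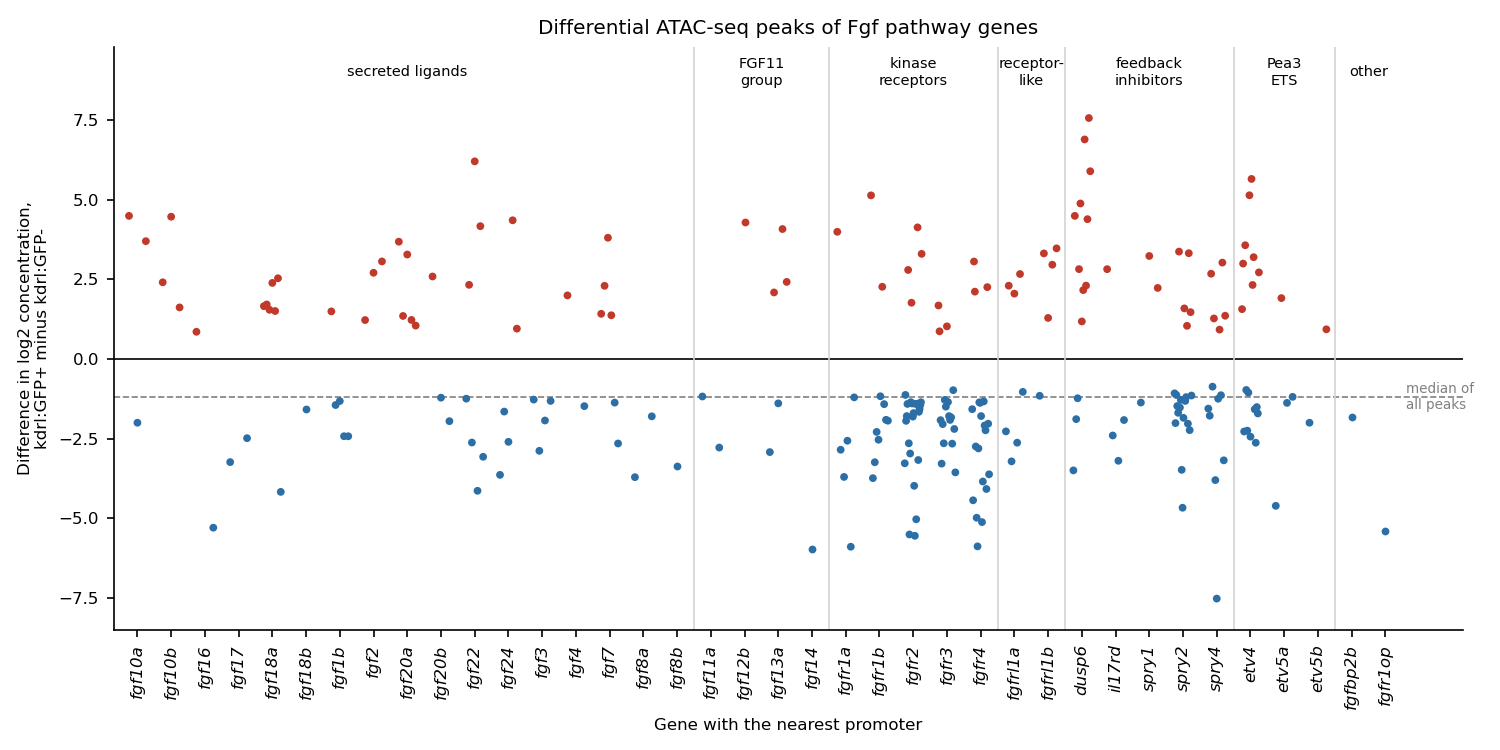
Difference in log2 concentration (*kdrl*:GFP+ minus *kdrl*:GFP-, vertical axis) of each of the 239 member peaks, by the gene with the nearest promoter and grouped by role. Each point is 1 peak, red where it was higher and blue where it was lower in *kdrl*:GFP+ cells, and the dashed line is the median of all 44025 peaks (-1.19). The columns of *fgfr2*, *fgfr3* and *fgfr4* lie mostly below 0, and that of *dusp6* mostly above it.

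The direction at endothelial and neural marker genes followed the labels of the sorted populations. Peaks nearest to endothelial marker genes such as *kdrl*, *fli1a* and *tek* were higher in *kdrl*:GFP+ cells in 94 of 107 cases (87.9%, 12 of 15 listed genes with a peak). Peaks nearest to neural marker genes were higher in 14 of 146 cases (9.59%, 11 of 12 genes with a peak) and those of skeletal muscle genes in 3 of 12. Single genes departed from their list, with 5 of 9 peaks higher at *cdh5*, 6 of 10 at *esama* and 5 of 10 at the neural gene *zic2a*. Of 5 primitive erythroid marker genes, *gata1a* alone had a peak, and it was higher in *kdrl*:GFP+ cells, with a difference of 4.95.

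Secreted ligands had 61 peaks at 17 genes, with 32 higher in *kdrl*:GFP+ cells (52.5%, interval 40.2% to 64.5%) and a median difference of 0.96. The interval covers the 44.7% of all peaks. By subfamily, the share was 4 of 8 peaks in the Fgf1 group, 1 of 2 in the Fgf4 group, 12 of 23 in the Fgf7 group, 8 of 18 in the Fgf8 group and 7 of 10 in the Fgf9 group. No subfamily was all higher or all lower, and the genes within a subfamily differed.

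*fgf18a*, a member of the Fgf8 group, had 6 of 7 peaks higher. The 6 lay next to each other over 45.8 kb, from intron 3 of the gene to 4.4 kb upstream of its start, with differences between 1.51 and 2.54. They included the promoter peak (chr14:2229116-2230925, Zv9), at 8.86 in *kdrl*:GFP+ cells against 7.35 in *kdrl*:GFP- cells. The remaining peak, 23.7 kb upstream (chr14:2252737-2253249), went the other way, with 1.24 in *kdrl*:GFP+ cells against 5.41 in *kdrl*:GFP- cells. *fgf18a* was thus the only ligand gene with a differential promoter peak inside a run of higher peaks.

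*fgf10a*, which encodes a ligand of the pectoral fin bud, and its duplicate *fgf10b* both had their largest difference in intron 1. The peak of *fgf10a* (chr21:18487766-18488211, 11.3 kb from the start) had 6.76 in *kdrl*:GFP+ cells against 2.27 in *kdrl*:GFP- cells, a difference of 4.50. That of *fgf10b* (chr5:9205385-9205911, 5.28 kb from the start) had 8.24 and 3.77, a difference of 4.47. All 3 peaks of *fgf10b* and 2 of 3 of *fgf10a* were higher in *kdrl*:GFP+ cells.

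*fgf2* and its neighbour *spry1*, which encodes a Sprouty inhibitor, lie 27.1 kb apart on chromosome 14, and 5 of the 6 peaks assigned to them were higher. All 6 were annotated to introns of *cyyr1*, a further gene that spans this interval. The largest at *fgf2* (chr14:559788-561542, 2.63 kb upstream) had 8.79 in *kdrl*:GFP+ cells against 5.72 in *kdrl*:GFP- cells. The largest at *spry1* (chr14:540847-542778, 6.87 kb from its start and beyond its end) had 9.88 and 6.64. A ligand gene and an inhibitor gene thus shared a stretch of peaks that were mostly higher in *kdrl*:GFP+ cells, and nearest-promoter assignment cannot say which of the 3 genes each peak belongs to.

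*fgf20a*, needed for fin regeneration in adult zebrafish, had all 5 peaks higher, none of them inside the gene. Its largest difference was 3.69, with 6.55 in *kdrl*:GFP+ cells against 2.87 in *kdrl*:GFP- cells, at a peak 61.3 kb from the start on the downstream side. *fgf7*, the zebrafish counterpart of the keratinocyte growth factor gene of mammals, had 4 of 6 higher, with the largest 49.4 kb upstream at 8.52 against 4.71. At these 2 genes all higher peaks lay outside the transcription unit.

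*fgf22* and *fgf24* had peaks of both directions side by side. At *fgf22*, 3 of 7 were higher and no neighbouring peaks had the same direction. A peak 7.49 kb upstream (chr22:19329412-19329750) had 6.43 in *kdrl*:GFP+ cells and the lowest value of the table in *kdrl*:GFP- cells, 0.22, which made it the third largest positive difference among members (6.21). At *fgf24*, a ligand of the Fgf8 group that acts in the pectoral fin bud, 2 of 5 were higher, and the largest difference was 4.36 in intron 2, with 7.86 against 3.50.

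*fgf3* and *fgf4* lie 8.48 kb apart on chromosome 7, and 1 of their 6 peaks was higher. That peak was the promoter peak of *fgf4* (chr7:54638475-54638821), with 6.47 in *kdrl*:GFP+ cells against 4.47 in *kdrl*:GFP- cells. The promoter peak of *fgf3* (chr7:54648235-54649162), a ligand of the hindbrain and ear, had 5.46 and 6.73 and so the opposite direction. Neighbouring ligand genes thus had promoter peaks of opposite direction.

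*fgf8a*, which encodes a ligand of the midbrain-hindbrain boundary, and its relatives *fgf8b* and *fgf17* had 5 peaks in all, each of them lower in *kdrl*:GFP+ cells. Their differences ranged from -1.80 to -3.71. *fgf18b* had 1 peak, also lower and annotated to the 3' untranslated region of *fbxw11b*, and *fgf16* had 1 in each direction. *fgf1b* had 1 of 5 higher, with its largest difference -2.42, and *fgf20b* had 1 of 3 higher, with its largest difference 2.59.

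The *fgf11* to *fgf14* genes encode intracellular proteins that bind voltage-gated sodium channels and do not act as receptor ligands. Their 9 peaks at 4 genes had 4 higher (44.4%), near the 44.7% of all peaks. *fgf13a* had 3 of 5 higher, with a largest difference of 4.08 at 27.0 kb upstream (5.51 against 1.42), and the only peak of *fgf12b* was higher. The only peak of *fgf14*, within an intron (chr9:32917426-32917896), had the lowest value of the table in *kdrl*:GFP+ cells, -0.36, against 5.61 in *kdrl*:GFP- cells, a difference of -5.97.

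**Figure D2:**
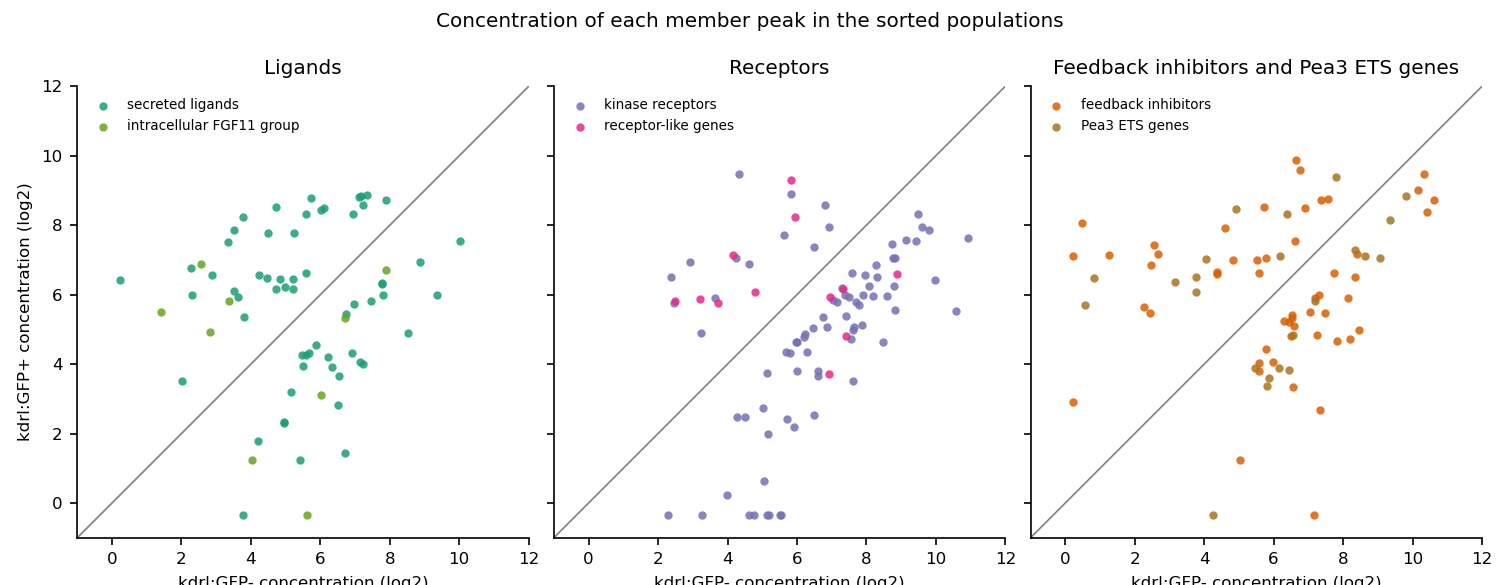
Log2 concentration of each member peak in *kdrl*:GFP- cells (horizontal axis) and *kdrl*:GFP+ cells (vertical axis), with a panel each for ligands, receptors, and feedback inhibitors with Pea3 ETS genes. Each point is 1 peak, the diagonal marks equal concentrations, and points at -0.36 on the vertical axis have the lowest *kdrl*:GFP+ value of the table. Kinase receptor peaks lie mostly below the diagonal (66 of 79), whereas secreted ligand peaks lie on both sides (32 above and 29 below).

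The 5 kinase receptor genes were peak-rich, with a median of 17 peaks each against 4 over all members with a peak and 3 over all genes of the table. Every one of them had more lower than higher peaks: 1 of 6 was higher at *fgfr1a*, 2 of 10 at *fgfr1b*, 4 of 26 at *fgfr2*, 3 of 17 at *fgfr3* and 3 of 20 at *fgfr4*. Their median difference was -1.83, with 19 of 79 below -3 (24.1%, against 13.3% of all peaks) and 5 above 3 (6.33%, against 17.8% of all peaks). The direction was shared by peaks inside the genes (5 of 38 higher) and upstream of them (4 of 33), whereas 4 of the 8 downstream peaks were higher. Neighbouring kinase receptor peaks had the same direction in 56 of 74 pairs (75.7%), against 67.5% over all genes. With 66 of 79 peaks lower, most pairs would share a direction whatever the order of the peaks. Neural marker genes, which were lower in 132 of 146 peaks, had the same direction. What part neural or other non-endothelial cells had in the receptor peaks was not tested.

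Several kinase receptor peaks had the minimum value in *kdrl*:GFP+ cells. Of the 79, 8 (10.1%) sat at the lowest *kdrl*:GFP+ concentration of the table, -0.36, against 3.29% of all peaks. Of these 8, 4 were at *fgfr4*. No kinase receptor peak sat at the lowest *kdrl*:GFP- concentration, where 3.40% of all peaks sat. A listed peak at the lowest value of a population is lower in that population. Both counts therefore follow in part from the direction of the receptor peaks, of which only 13 were higher. The size of a difference at such a peak rests on that lowest value.

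*fgfr1a* had 5 lower peaks within 25.7 kb of each other upstream of the gene, with differences from -1.20 to -5.89. The most negative (chr8:53811840-53812296, 26.8 kb upstream) had -0.36 in *kdrl*:GFP+ cells against 5.53 in *kdrl*:GFP- cells. The only peak within the gene (chr8:53774746-53775391, intron 1) was the only higher one, with 6.93 and 2.93, a difference of 4.0. The upstream and intronic peaks of *fgfr1a* thus had opposite directions.

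*fgfr1b* showed the reverse arrangement. Its peak 20.1 kb upstream (chr10:43934198-43935201) had 9.48 in *kdrl*:GFP+ cells against 4.34 in *kdrl*:GFP- cells, the largest positive difference of any receptor peak (5.14). Intron 1 held 5 peaks, all lower, with differences from -1.17 to -3.74 and the most negative 2.13 kb from the start. Intron 2 held 4 peaks, of which 3 were lower and 1, 28.7 kb from the start, was higher with 5.91 against 3.64. Both *fgfr1* genes had mostly lower peaks, with the largest positive difference in intron 1 at *fgfr1a* and upstream at *fgfr1b*.

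*fgfr2* had 26 peaks, the most of any member, and 22 were lower. Of 15 inside the gene, 13 were lower, spread over introns 1, 2, 5, 6, 10 and 11 and an exon of the 5' untranslated region. The peak on that exon (chr13:47032748-47033115, 7.69 kb from the start) had -0.36 in *kdrl*:GFP+ cells against 5.19 in *kdrl*:GFP- cells, and a peak in intron 6 (chr13:46975361-46975763) had -0.36 and 5.15. The higher peaks inside the gene were in intron 7, overlapping an exon (7.06 against 4.26), and in intron 2 (8.57 against 6.80). These 2 lay among lower peaks on either side.

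*fgfr3*, on the same chromosome, had 7 of 8 peaks inside the gene lower. The intron 5 peak (chr13:13110959-13112785) had 7.64 in *kdrl*:GFP+ cells against 10.93 in *kdrl*:GFP- cells, a difference of -3.28. The other lower ones, in introns 1, 2, 4 and 13, had differences from -1.28 to -2.64. The higher peak, in intron 1 at 6.02 kb from the start, had 7.96 and 6.93. The largest difference at *fgfr3*, -3.56, lay 128.0 kb upstream.

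*fgfr4* is a compact gene of 10.5 kb, and all 5 peaks inside it were lower. The most negative (chr21:36514898-36515393, at intron 8 and overlapping an exon) had -0.36 in *kdrl*:GFP+ cells against 5.52 in *kdrl*:GFP- cells. A second one at intron 16 had -0.36 and 4.62. The others lay at intron 2, where there were 2 (3.81 against 6.61 and 4.63 against 5.99), and in the 3' untranslated region (5.13 against 7.87). Together with the peaks up to 40 kb upstream they formed a run of 13 lower peaks, with a median difference of -2.74. The 15 peaks of *fgfr4* outside the gene, among them the upstream part of this run, were annotated to intron 7 of a transcript named *rbm41*. Of these 15, 3 were higher. No other receptor had a run of this length.

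**Figure D3:**
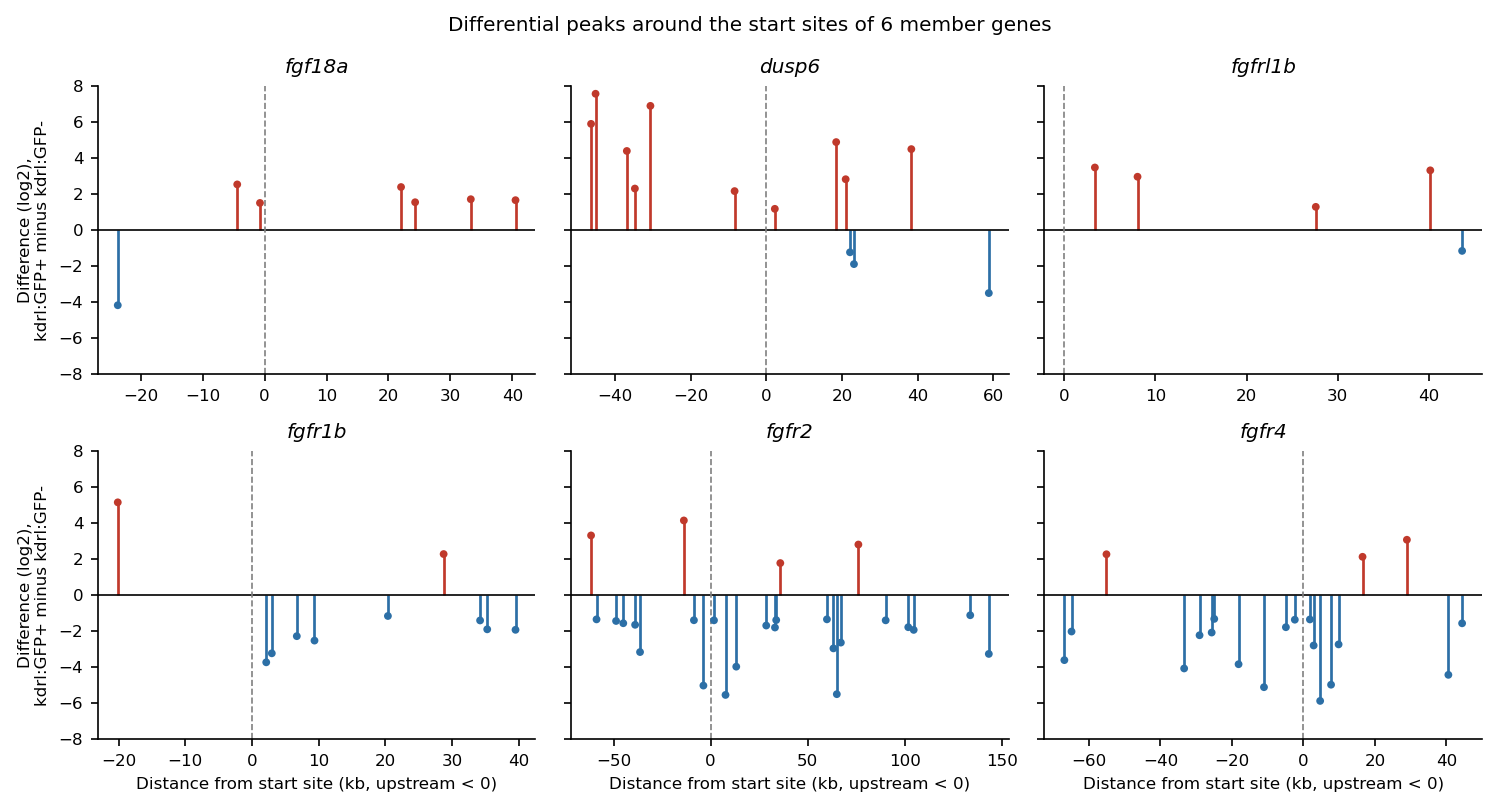
Difference in log2 concentration (*kdrl*:GFP+ minus *kdrl*:GFP-, vertical axis) of the peaks of 6 genes against the distance from the gene's start site in kb (horizontal axis, upstream negative). Each stem is 1 peak, red where it was higher and blue where it was lower in *kdrl*:GFP+ cells. At *fgf18a* 6 of 7, at *dusp6* 10 of 13 and at *fgfrl1b* 4 of 5 stems point up, whereas at *fgfr1b*, *fgfr2* and *fgfr4* 2 of 10, 4 of 26 and 3 of 20 do.

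The receptor-like genes *fgfrl1a* and *fgfrl1b* encode receptors that bind Fgf but lack the kinase domain. Their 12 peaks were all intronic and 7 were higher (58.3%, interval 32.0% to 80.7%, against 44.7% of all peaks), with a median difference of 1.67. At *fgfrl1b*, 4 peaks in intron 1 were higher, with 9.31 against 5.83 at 3.35 kb from the start (chr14:43207979-43209021), 7.13 against 4.17 at 8.03 kb, 6.08 against 4.78 at 27.6 kb and 5.81 against 2.49 at 40.2 kb. Its intron 2 peak was lower, with 6.16 against 7.32. At *fgfrl1a*, 3 of 7 were higher and no neighbouring peaks had the same direction. Its higher peaks, all in intron 2, had differences of 2.06, 2.31 and 2.67. Its lower ones had -1.03, -2.62 and -3.21 in intron 2 and -2.27 in intron 3.

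The feedback inhibitors had 23 of 53 peaks higher (43.4%, interval 31.0% to 56.7%), near the 44.7% of all peaks. *dusp6* supplied 10 of the 23. Without it, 13 of 40 were higher (32.5%, interval 20.1% to 48.0%), and the *spry* genes alone had 12 of 36. *dusp6* and the other inhibitors are therefore given apart.

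*dusp6*, whose product removes the activating phosphates of Erk, had 3 of the 5 largest positive differences among all member peaks. These lay 30.6 to 46.3 kb upstream, and 2 of them were annotated to introns of the neighbouring gene *poc1b*. The largest (chr25:18862497-18863379) had 8.05 in *kdrl*:GFP+ cells against 0.49 in *kdrl*:GFP- cells, or 266 against 1.40 mean normalised reads, a difference of 7.57 that ranked 229 from the top among all peaks. The next (chr25:18848224-18848651) had 7.12 and the lowest *kdrl*:GFP- value, 0.22. The third of them (chr25:18863851-18864406) had 7.15 and 1.25. The peak within the gene itself (chr25:18814873-18816220) was higher by less, with 8.76 against 7.58. Including all of these, 9 neighbouring peaks over 68.1 kb were higher, with a median difference of 4.39 and a range of 1.18 to 7.57. The 3 lower peaks of *dusp6* all lay downstream, where higher peaks with differences of 2.83, 4.50 and 4.89 lay too.

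*spry4* held the most negative difference of all members. The peak 18.7 kb upstream (chr21:43187960-43188488) had -0.36 in *kdrl*:GFP+ cells against 7.16 in *kdrl*:GFP- cells, a difference of -7.52 that ranked 75 from the bottom among all peaks. Of the 13 peaks of *spry4*, 5 were higher, and the nearest peak on either side of it was lower too. *spry2* had 20 peaks, spread up to 494.0 kb upstream, and 5 were higher. Its largest difference, -4.67, was at 71.8 kb upstream, with 2.66 against 7.33. No peak of *spry1*, *spry2* or *spry4* lay inside the gene.

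*il17rd*, which encodes a membrane inhibitor of Fgf receptor signalling, had 4 peaks, all in intron 1. The peak nearest to its start, at 4.66 kb, was higher with 8.53 in *kdrl*:GFP+ cells against 5.71 in *kdrl*:GFP- cells. The next ones were lower, with 4.85 against 7.25 at 10.9 kb, 3.35 against 6.55 at 15.0 kb and 4.07 against 5.99 at 32.2 kb. The peak closest to the start of *il17rd* thus had the opposite direction to the rest of the intron.

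**Figure D4:**
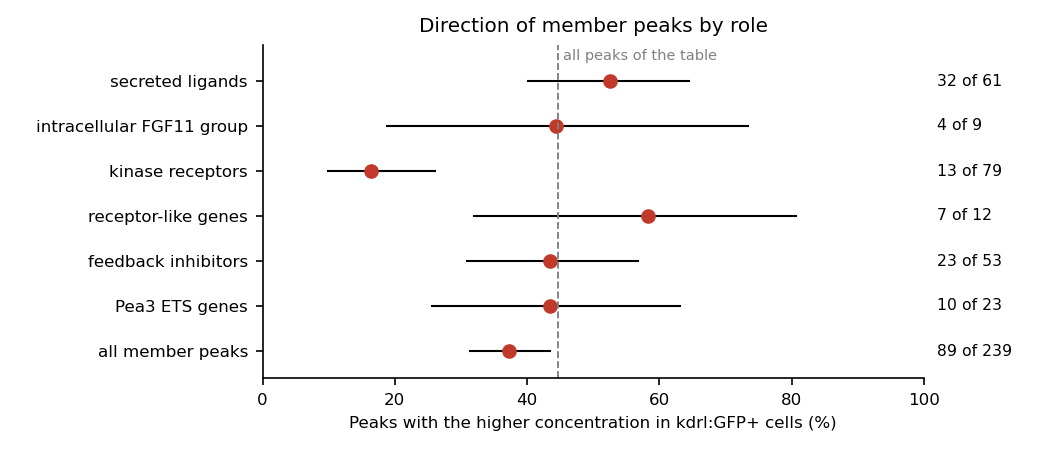
Percentage of peaks with the higher concentration in *kdrl*:GFP+ cells (horizontal axis) by role, with the number of higher peaks and all peaks at the right. Bars are 95% Wilson intervals that count peaks as independent, and the dashed line is the share over all 44025 peaks (44.7%). The bar of the kinase receptors (9.88% to 26.1%) lies wholly below the line and that of all member peaks (31.4% to 43.5%) ends just below it.

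The Pea3 ETS genes, transcription factors used as readouts of Fgf signalling, had 10 of 23 peaks higher (43.5%, interval 25.6% to 63.2%). This was near the 44.7% of all peaks. *etv4* had 17 of these peaks, and 8 were higher. Its promoter peak (chr12:29106103-29107640) had 8.85 in *kdrl*:GFP+ cells against 9.82 in *kdrl*:GFP- cells. Within the gene, 1 of the 3 intronic peaks was higher, 20.9 kb from the start (chr12:29128042-29128374), with 5.70 against 0.55 and a difference of 5.14. The others had 3.61 against 5.86 and 7.29 against 8.34. The largest difference at *etv4*, 5.66, was 188.8 kb from the start on the downstream side, with 6.48 against 0.83. *etv5a* had 1 of 4 higher and *etv5b* 1 of 2, with no peak inside either gene. The most negative at *etv5a*, -4.61, was 47.0 kb upstream.

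Across the 4 promoter peaks of members, those of *fgf4* and *fgf18a* were higher in *kdrl*:GFP+ cells, by 2.0 and 1.51, and those of *fgf3* and *etv4* were lower, by differences of -1.27 and -0.97. No receptor or inhibitor gene had a differential promoter peak. Peaks at promoters that did not differ would not be in the table.

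Several members are duplicates that zebrafish kept after the whole-genome duplication of teleost fishes, and the copies of some pairs had unequal sets of peaks. At *fgf10a* (2 of 3 higher) and *fgf10b* (3 of 3), both copies had a majority of higher peaks. *fgf18a* had 6 of 7 higher and *fgf18b* 0 of 1, and *fgf20a* had 5 of 5 higher and *fgf20b* 1 of 3. *fgfrl1a* had 3 of 7 and *fgfrl1b* 4 of 5. *fgf1b*, *fgf12b* and *fgf13a* had 5, 1 and 5 peaks, whereas their duplicates *fgf1a*, *fgf12a* and *fgf13b* had none. Such counts were not made for duplicate pairs outside the members. At *fgfr1a* and *fgfr1b* (1 of 6 and 2 of 10), *fgf8a* and *fgf8b* (0 of 2 and 0 of 1) and *etv5a* and *etv5b* (1 of 4 and 1 of 2) neither copy had a majority of higher peaks.

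The 10 members that were the nearest promoter of no differential peak were *fgf1a*, *fgf5*, *fgf6a*, *fgf6b*, *fgf12a*, *fgf13b*, *fgf19*, *fgf21*, *fgf23* and *fgfr1op2*. These include all 3 endocrine ligands (*fgf19*, *fgf21* and *fgf23*), which circulate as hormones, and every gene of the Fgf4 group except *fgf4*. Having no peak was common in the series: 9030 gene symbols had one, beside 14612 genes with exon coordinates. Of the 48 members, 38 had one, a larger part than by these totals. Having no peak also rests on the nearest-promoter assignment. Within 20 kb, 3 differential peaks lay near *fgf5*, 2 near *fgf19* and 3 near *fgfr1op2*, all assigned to other genes. *fgfbp2b*, which encodes an Fgf-binding protein, and *fgfr1op*, a centrosomal gene taken in by its symbol, had 1 lower peak each. That of *fgfr1op* was annotated to an exon of another gene, *myt1la*, and sat at the lowest *kdrl*:GFP+ value of the table.

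Member peaks lay in introns more often than the peaks of the whole table did, chiefly those of the receptor genes. Of the 239, 96 (40.2%) were intronic and 132 (55.2%) intergenic, against 25.7% and 67.5% of all peaks, and 4 were at promoters (1.67% against 2.04%). Kinase receptor peaks were intronic in 51 of 79 cases (64.6%), 15 of them in *rbm41* rather than in a receptor gene, and all 12 receptor-like peaks were intronic. Of the secreted ligand peaks 27.9% were intronic, near the share of all peaks, whereas the feedback inhibitors and the Pea3 ETS genes had 79.2% and 82.6% intergenic peaks. Some intronic peaks of *fgf2*, *spry1*, *fgf16* and *dusp6* also lay in other genes. The median distance from the promoter was 30.5 kb for members and 41.8 kb over all peaks. Within 20 kb of the promoter 31 of 87 member peaks were higher (35.6%, against 48.8% of all peaks at that distance), between 20 and 100 kb 52 of 126 were (41.3%, against 44.9%), and beyond 100 kb 6 of 26 were (23.1%, against 39.0%). The share of members was thus lower in each range, but not that of every role. Between 20 and 100 kb the interval of the members was 33.1% to 50.0%, and beyond 100 kb it was 11.0% to 42.1%. Both covered the share of all peaks. Kinase receptors had 4 of 29, 8 of 44 and 1 of 6 higher. In the 2 nearer ranges, secreted ligands had 15 of 27 and 17 of 30 higher (55.6% and 56.7%). Feedback inhibitors had 8 of 16 and 14 of 29 (50.0% and 48.3%). These shares were above those of all peaks, but each interval covered the share of all peaks. The intervals were 37.3% to 72.4% and 39.2% to 72.6% for the ligands, and 28.0% to 72.0% and 31.4% to 65.6% for the inhibitors. The inhibitor counts include *dusp6*, without which 32.5% of inhibitor peaks were higher over all distances. Beyond 100 kb, secreted ligands had 0 of 4 higher and feedback inhibitors 1 of 8.

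Other genes of the Fgf signalling cascade had slightly more higher than lower peaks. A list of 48 symbols was used for adaptors, kinases, phosphatases, co-receptors and target genes that are no members. It holds alternative symbols, such as *hras* beside *hrasa* and *hrasb*, so 48 is not a count of genes. Of these symbols, 24 had peaks. Of their 171 peaks, 94 were higher in *kdrl*:GFP+ cells (55.0%, interval 47.5% to 62.2%), with a median difference of 1.47. Over all peaks the share was 44.7% and the median -1.19. All peaks were higher at *dusp4* (9 of 9) and *dusp5* (6 of 6), which encode phosphatases of Erk like *dusp6*, and at *cbl* (7 of 7), which encodes a ubiquitin ligase of activated receptors. The same held at the Ras exchange factor gene *sos1* (6 of 6), at *kras* (5 of 5), at the early response gene *egr1* (8 of 8) and at *grb2a* (2 of 2). All peaks were lower at *spred1* (0 of 4 higher), *cnpy1* (0 of 4), *hrasa* (0 of 1) and *spred3* (0 of 1), and the genes with the most peaks, *flrt3* (8 of 26 higher) and *hrasb* (6 of 22), had mostly lower ones. Several of the listed genes, such as *grb2a*, *sos1* and *kras*, serve many receptor kinases besides those of Fgf.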

How the data were processed

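The authors trimmed reads, mapped them to Zv9 with BWA 0.7.12, called peaks per library against genomic DNA, retained those shared by replicates and ran DiffBind with its edgeR method between the populations. In the deposited table of differential peaks, the concentrations are the log2 of mean normalised reads per group as the authors computed them, with 1 value per group. Library scaling, duplicate removal and transposase shift are not given in the sources used here. The labels give 3 libraries of each population, whereas the paper gives 2 *kdrl*:GFP+ and 4 *kdrl*:GFP- libraries for its comparison. By the paper's account, 4 replicates were made and 2 of the *kdrl*:GFP+ replicates were removed as outliers. As the labels differ from this, the number behind each group mean is uncertain. The authors' fold and p-value columns were not used. A second table gave exon coordinates. Its 6 per-sample columns match no sample of the series and were not used, nor were its columns of log2 fold change and FDR. From the concentrations, differences, counts and 95% Wilson intervals were computed in Python 3.11.15 with numpy 2.4.6, pandas 2.3.3 and matplotlib 3.10.9, and the code was tested on simulated data.

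The member genes and lists were chosen with earlier results of these data known. Peaks were named where they had 1 of the 5 largest positive or 5 most negative differences, were annotated to a promoter or within 1000 bp of it, had the largest absolute difference of a gene with 3 or more peaks, or lay inside a receptor, inhibitor or Pea3 ETS gene. Runs of peaks were described after their values were seen. Alternatives changed the gene names, the link of peaks to genes, filters on distance and concentration, a pseudocount of 1 and the centring.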

Additional observations from a re-analysis of the deposited data

How the results depend on the processing

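Of the 43 alternative values computed, 38 stayed within the 95% interval of the reported share or median (for the number of genes, within 1.5 times) and 5 moved beyond it. These intervals are wide for roles with few peaks: within the gene or 20 kb of it, 33.3% of Pea3 ETS peaks were higher, against 43.5% as reported. Centred on the median of all peaks (-1.19), the median difference of members was -0.17 and 42.7% of member peaks were higher, against 50.0% of all peaks. Among peaks with an absolute difference above 2 or above 3, 45.5% and 46.5% of members were higher, against 49.7% and 57.3% of all peaks. Without the kinase receptor genes, chosen after the data were seen, 47.5% were higher and the median difference was -1.06, so that the remaining members lay above the 44.7% and -1.19 of all peaks rather than below them. Without *dusp6*, also chosen then, 35.0% were higher. Left out or kept by distance, concentration, gene overlap or current symbol, the share of members higher lay between 35.6% and 39.0%, and that of the kinase receptors between 16.4% and 18.6%. By the sign of the mean difference, 14 genes were higher, against 11 by a majority of peaks. No paired analysis was possible because each group has 1 pooled value. No library could be left out for the same reason, and no spread between libraries is known. Differences at the lowest concentration of either group, which 13 and 3 member peaks had, rest on that value.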
